A study of Mus musculus with 4 samples.

Results

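Peaks of accessible chromatin at the 3′ ends of protein-coding genes were examined in mouse visceral adipose tissue. A peak was counted when its summit, the base with the highest read pile-up, lay within 500 bp of the 3′ end of a curated protein-coding RefSeq transcript. The summit also had to be more than 2 kb from every curated transcription start site and outside coding exons. On chromosomes 1 to 19 of mm10, 2682 of 335140 peaks met this rule, and they merged into 1427 regions. The rule used position alone and no measured height.

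Open chromatin was assayed by ATAC-seq, which uses a transposase that cuts DNA where it is not packed and tags the cut ends, so that peaks of reads mark accessible DNA. The 4 libraries came from adipose tissue of CD-1 animals, which belong to an outbred stock and so differ in genotype. The study's text on its ATAC-seq experiments gives an age of 8 weeks for the mice used. Its text on genomic DNA, which concerns other libraries, gives an age range instead. No separate age at which the adipose tissue was taken is named. The 2 control libraries trace back to dams that received only the vehicle, sesame oil. The 2 BPA libraries trace back to dams that received bisphenol A, a chemical of plastics, by injection (50 mg/kg, embryonic days 7.5 to 13.5). The sources disagree on how many generations separate these dams from the animals, which is therefore not stated here, and they give no batch or sex. With 2 libraries per group, the smallest exact permutation p for a group difference is 0.33. Below, paired values for a group are given in the order of its libraries 1 and 2.

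The 4 deposited lists held 72375 to 98060 peaks. Promoter peaks at 7 of 7 adipocyte marker genes were found in every library, and at 0 of 3 hepatocyte marker genes in any, which fits the labelled tissue. Promoter peaks at 5 endothelial marker genes were found at 2 in each control library and at 5 in each BPA library. Of 6 leukocyte markers, 3 and 2 had one in the controls and 3 in each BPA library. Of 3 mesothelial markers, 2 had one in each control library and 2 and 1 in the BPA libraries. Of 3 epithelial markers, 2 and 0 had one in the controls and 2 in each BPA library. In bulk tissue, fewer cells of a type and less accessible chromatin per cell cannot be told apart. Read depth is unknown from peak lists, so the number of peaks in each list stands beside the counts below.

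The 3′ end of a gene is where the nascent transcript is cleaved and polyadenylated, usually downstream of the hexamer AATAAA, and where RNA polymerase II slows down and leaves the template. The stretch before the cleavage site is rich in A and T. Open chromatin is best known at promoters and enhancers, but accessible sites also occur next to 3′ ends, where regulatory elements, small genes and architectural sites can lie. CTCF, the zinc finger protein that anchors chromatin loops and domain borders, is one factor whose sites are found inside and between genes.

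Of 6 motifs searched, the core motif of CTCF differed most in share between 3′-end and other distal summits on average over the 4 libraries, so a set of these sites is shown first. Below are the 7 sites with the best ranks among regions with a 3′-end peak in all 4 libraries. Each is 30 bases of the mm10 reference, a C57BL/6J sequence and not that of the CD-1 animals, written 5′ to 3′ on the strand that carries the match. The 12 capital letters mark the CTCF core.
Slc4a3, chr1:75559667-75559696, minus strand: caaaaaccaCCACCAGAGGGCtacacacgg
Aak1, chr6:87002937-87002966, minus strand: caaatactgCCAGCAGAGGGCgctcatctt
Sytl2, chr7:90410139-90410168, minus strand: catatgcagCCAGTAGGTGGCaccaaagtc
Ror2, chr13:53109743-53109772, plus strand: catcctccgCCAGCAGGGGGCtcacggagc
Slc34a3, chr2:25228494-25228523, minus strand: tctccctagCCACTAGGGGGCacccttcct
Dand5, chr8:84815722-84815751, minus strand: cgcttttagCCACTAGGTGGCaccgcgtcc
Bcan, chr3:87987135-87987164, minus strand: aggctgtgaCCAGTAGAGGGCgctgcagat
These sites lay on either side of the 3′ end. The core at Slc4a3, which encodes an anion exchanger, was 251 bp downstream of the annotated end, in intergenic sequence. The core at Aak1, a kinase of clathrin-mediated endocytosis, was 275 bp upstream of it, in a noncoding part of an exon. All 7 cores were within 92 bp of a 3′-end summit.

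A 3′-end peak was a minor but steady class in every library. There were 577 and 695 in the controls and 573 and 837 in the BPA libraries. As a share of autosomal peaks they made up 0.714% in control 1 (95% Wilson interval 0.658 to 0.774), 0.799% in control 2 (0.742 to 0.860), 0.806% in BPA 1 (0.743 to 0.874) and 0.870% in BPA 2 (0.813 to 0.931). These intervals cover counting error only. The BPA shares were both above the control shares, by 0.0816 percentage points on average, but the intervals of control 2 and BPA 1 overlapped almost wholly and the exact permutation p was 0.33, the smallest that 2 against 2 libraries can give. The number of 3′-end peaks followed the length of the list, with the fewest in BPA 1, the shortest list, and the most in BPA 2, the longest.

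The summits were sparser next to the 3′ end itself. In BPA 1, the density of summits was 24.1 per Mb of eligible sequence within 200 bp of a 3′ end and 43.7 per Mb at 200 to 500 bp. In control 1 the same values were 32.2 and 38.9 per Mb, in control 2 36.0 and 48.8, and in BPA 2 41.1 and 60.3. The inner density was therefore lower in each of 4 libraries, at 0.551 to 0.829 times the outer one. Eligible sequence means bases that meet the same rule on starts and coding exons, and it amounted to 16 Mb within 500 bp of 3′ ends. The contrast at 200 bp was chosen after the profile was seen and is given without a test. The sequence changed at the same place, with a G+C content of 41.9% within 200 bp and 44.8% at 200 to 500 bp, and 36.3% in the last 100 bp of the transcript. The part of base composition in the lower density was not tested.

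**Figure D1:**
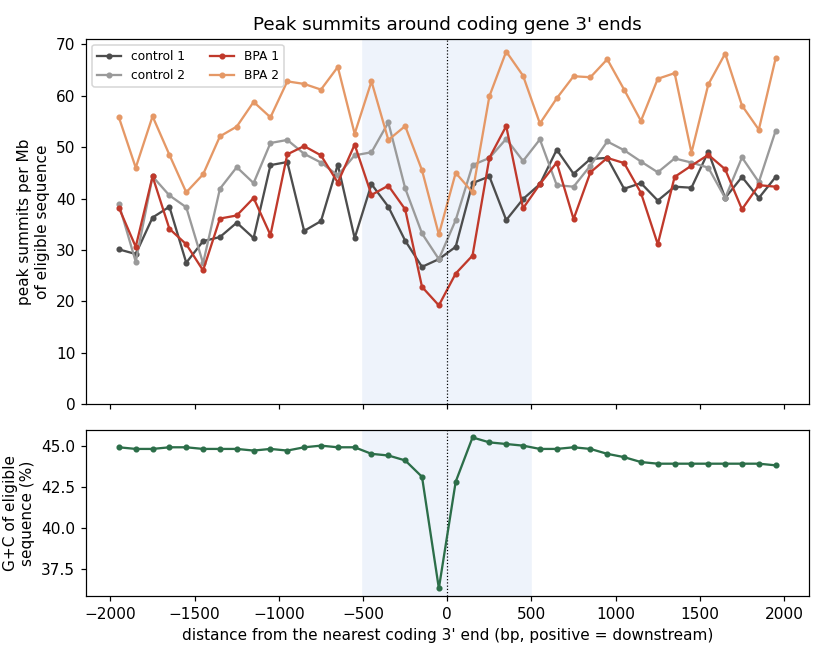
Peak summits per Mb of eligible sequence in 100 bp bins around the nearest coding 3′ end (top, 1 line per library) and the G+C content of the same sequence (bottom); the shaded span is the 500 bp window. All 4 lines dip next to the end, where G+C falls to 36.3% in the last bin before it, and return to the level of the flanks by about 200 bp.

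Over the whole 500 bp window, density at 3′ ends was slightly below that of the flanks, the sequence 500 to 1500 bp from a coding 3′ end under the same rule. The ratio was 0.880 and 0.945 in the controls and 0.855 and 0.893 in the BPA libraries, with a mean of 0.893 ± 0.0379 (SD, n = 4). It was below 1 in 4 of 4 libraries, with an exact two-sided sign-flip p of 0.13, the smallest that 4 libraries can give, so that no such test here can pass 0.05 (adjusted p = 0.146 over 14 such tests, Benjamini-Hochberg). With a window of 1000 bp the ratio turned to 1.03. Across the border of the window, 126 to 194 summits per library lay at 400 to 500 bp and 116 to 162 at 500 to 600 bp, so the rule's limit did not fall at a step.

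Within the window, summits lay somewhat more often downstream of the gene than in it. The downstream share was 56.2% and 55.1% in the controls and 57.2% and 55.7% in the BPA libraries, against 52.4% of the eligible sequence. The excess averaged 3.65 ± 0.906 percentage points (SD, n = 4) and was positive in 4 of 4 libraries (exact sign-flip p = 0.13, adjusted p = 0.146). By annotation, 42.1 to 44.8% of the peaks had their summit in exon sequence of a curated transcript outside coding exons, and 44.7 to 48.2% in intergenic sequence. Introns held 8.36 to 10.8%. Few summits lay by a start that is only predicted: 4 to 7 peaks per library were within 500 bp of a start of a RefSeq model transcript.

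The genes with such a peak were a small part of all genes. Of 17145 autosomal coding genes with an eligible 3′ end, 596 and 715 had a 3′-end peak in the controls and 604 and 870 in the BPA libraries, or 3.48 to 5.07% of genes. In at least 1 library the count was 1477 genes, which is 8.61%. It was 190 genes in all 4 libraries, which is 1.11%. Another 754 genes had the peak in 1 library, 328 in 2 and 205 in 3. Some peaks served 2 genes at once, since 21 to 36 peaks per library lay within 500 bp of the ends of more than 1 gene.

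Genes with a 3′-end peak had an open promoter more often than other genes. Among genes with the peak, 76.2% and 76.5% in the controls and 78.5% and 83.9% in the BPA libraries also had a promoter peak in the same library. Among the other genes the shares were 68.3%, 66.8%, 70.1% and 73.5%. The difference averaged 9.06 ± 1.16 percentage points (SD, n = 4), with the same sign in 4 of 4 libraries (exact sign-flip p = 0.13, adjusted p = 0.146). In the best 20000 peaks of each library it was 3.79 points (exact sign-flip p = 0.25). The 3′ end of a gene on the opposite strand lay within 1000 bp for 15.6% of the 1477 genes, for 12.6% of the 190 genes with the peak in 4 libraries and for 11.3% of all eligible genes. A peak between such a pair of ends counts for both genes, and this share was not tested. The median gene span was 23.7 kb against 21 kb. More than 1 curated 3′ end was annotated for 15.0% of the genes with a peak and for 8.74% of all, but each further end adds eligible sequence, so this share is raised by the rule itself. The hexamer AATAAA stood in the 50 bases before the end at 62.7% of 1425 ends with a peak and 63.2% of 18727 eligible ends.

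The peaks were of middling height. Each list was ranked by the authors' −log10 q-value, the significance of the peak over local background, as percent of the list with 0 the best. The median rank of 3′-end peaks was 53.7 and 54.6 in the controls and 58.4 and 57.7 in the BPA libraries. Other distal peaks, here and below, are those that meet the same rule on starts and coding exons but lie over 500 bp from a coding 3′ end. They include the flank peaks. Their medians were 56.2, 55.3, 57.2 and 55.9. The 3′-end peaks thus ranked better in both controls and worse in both BPA libraries, and the mean difference of -0.0458 ± 1.96 points (SD, n = 4) had no direction (exact sign-flip p = 1.00). Flank peaks had medians of 53.8, 52.5, 61.1 and 60.5, so the same order of the groups was found next to the window. Only 2.15 to 3.17% of 3′-end peaks were in the best 10% of their list. The median fold over background was 3.70 to 4.94 across libraries, and the highest fold was 10.6 to 15.5.

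**Figure D2:**
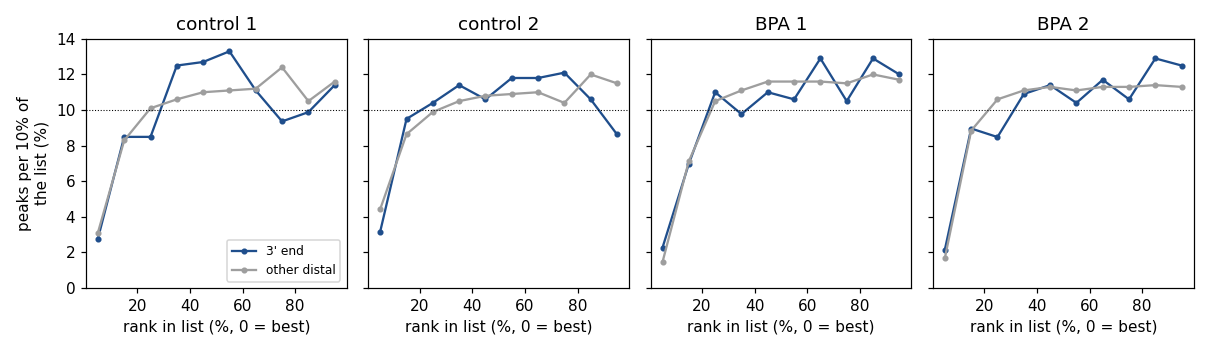
Share of 3′-end peaks (blue) and other distal peaks (grey) in each successive 10% of their library's list, ordered by −log10 q from best to worst; 1 panel per library, with the dotted line at 10%. Both kinds are scarce in the best 10%, with 2.15 to 3.17% of 3′-end peaks there, and each later 10% holds 6.98 to 13.3% of them.

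Peaks closest to the end were the weaker ones. Within 200 bp of it, the median rank was 54.7 and 58.9 in the controls and 65.9 and 60.7 in the BPA libraries. At 200 to 500 bp it was 53.7, 52.3, 55.0 and 56.8. The inner peaks ranked worse in each library, by the smallest margin in control 1, in a split also chosen after the profile was seen. With the window narrowed to 250 bp, the median rank was 3.94 points worse than that of other distal peaks, in 4 of 4 libraries (exact sign-flip p = 0.13).

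The 3′-end summits were richer in G and C than other distal ones. The median G+C content within 100 bp of the summit was 49.3% and 50.2% in the controls and 52.2% and 50.7% in the BPA libraries. Other distal summits had 45.8%, 46.8%, 49.3% and 48.3%. The difference averaged 3.11 ± 0.476 percentage points (SD, n = 4) and was positive in 4 of 4 libraries (exact sign-flip p = 0.13, adjusted p = 0.146). Flank summits had 49.3 to 51.7%, so the higher G+C content was shared with the surroundings of 3′ ends. The median ratio of observed to expected CpG was low in both kinds, at 0.218 to 0.232 in 3′-end summits and 0.199 to 0.223 in other distal ones.

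The CTCF core was more frequent at 3′-end summits than at any other kind of distal summit compared. Within 100 bp of the summit it occurred on either strand in 46 of 577 peaks in control 1 (7.97%), 54 of 695 in control 2 (7.77%), 47 of 573 in BPA 1 (8.20%) and 60 of 837 in BPA 2 (7.17%). Other distal summits held it in 3.90%, 4.11%, 2.87% and 3.13%, and all autosomal summits in 2.51 to 3.62%. The lowest 3′-end library was above the highest other distal one. The difference averaged 4.27 ± 0.730 percentage points (SD, n = 4), and 4.01 ± 0.750 when other distal summits were weighted to the G+C content of the 3′-end summits. Both were positive in 4 of 4 libraries (exact sign-flip p = 0.13, adjusted p = 0.146). Flank summits stood between, at 5.00 to 6.40%, and the 3′-end share was above theirs in 4 of 4 libraries by 2.00 ± 0.813 points (SD, n = 4, exact sign-flip p = 0.13, adjusted p = 0.146).

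Of the 1427 merged regions, 94 held a CTCF core near a 3′-end summit. The core was downstream of the 3′ end in 59 of these and pointed along the gene's strand in 51, against it in 43. In 77 of the 94 regions it lay within 50 bp of the best-ranked summit that had a core in reach, at a median of 33.0 bp, although the search reached 100 bp. In 25 regions the core was within 200 bp of the 3′ end. A match to the core describes the letters and is no measurement of CTCF binding.

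The 3′-end peaks with a CTCF core ranked better than those without it. The median rank was 43.9 with and 55.2 without it in control 1, and 40.4 and 55.7 in control 2. In BPA 1 it was 55.2 and 58.7, and in BPA 2 48.3 and 58.4. The difference had the same sign in 4 of 4 libraries and was smallest in BPA 1. Among other distal peaks the medians with the core were 42.0, 39.3, 52.5 and 49.9, and without it they were 56.1 to 57.4, the same order as at 3′ ends.

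On average over the libraries the other motifs differed less, or in the other direction. The GC box GGGCGG, which Sp1-type factors bind, was near 8.36 to 9.95% of 3′-end summits and 4.83 to 7.13% of other distal summits, but near 12.6 to 16.4% of all autosomal summits, promoters included. Flank summits held the GC box in 7.20 to 9.28%, close to the 3′-end share. Its excess over other distal summits was 4.18 and 3.97 points in the controls, slightly above that of the CTCF core there, and 2.81 and 2.35 points in the BPA libraries, below it. The AP-1 site TGANTCA, bound by Fos and Jun dimers at many enhancers, was near 7.80 to 9.32% of 3′-end summits and 10.8 to 13.0% of other distal ones, lower by 3.15 points on average in 4 of 4 libraries (exact sign-flip p = 0.13, adjusted p = 0.146). At flank summits the AP-1 share was 8.31 to 9.81%, so the lower share was largely common to the surroundings of 3′ ends. The ETS motif CCGGAAG was near 1.29 to 2.44% of 3′-end and 1.08 to 1.70% of other distal summits. The C/EBP site TTGCNNCAA, of the family that drives fat cell differentiation, was near 1.22 to 2.39% and 1.74 to 2.16%, with no steady sign (exact sign-flip p = 0.625). The full NF-I palindrome was found in 0 of 1427 3′-end regions, which allows a share of up to 0.210% of regions. Other distal summits held it in 0.0576 to 0.0865% per library. The first value counts regions and the second summits, and a difference was not detectable. All motifs were searched on both strands, and a summit could count for several.

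**Figure D3:**
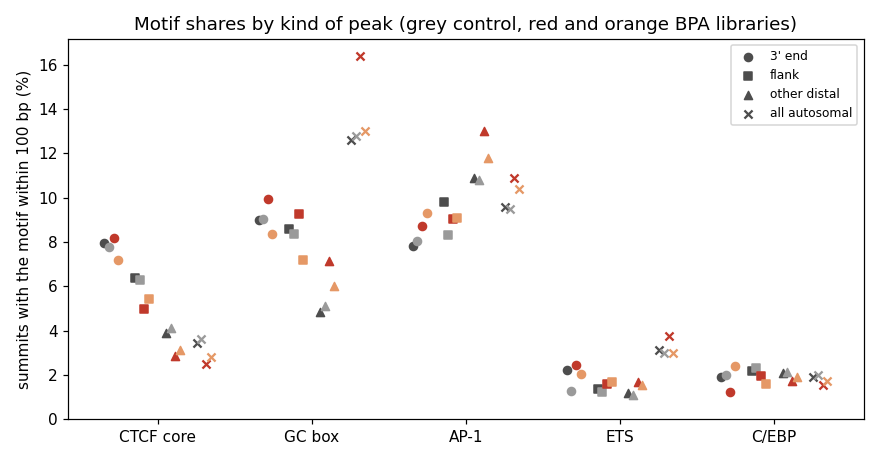
Share of summits (%) with each motif within 100 bp, for 3′-end, flank, other distal and all autosomal peaks; each point is 1 library. For the CTCF core the 4 3′-end points lie between 7.17 and 8.20%, above every flank and other distal point. For AP-1 they lie below every other distal point but overlap the flank points.

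The 3′-end regions were shared between libraries about as often as the flank regions. A region counted as present in a library when any of that library's peaks overlapped it by at least 1 bp. By this measure 509 of 1427 regions (35.7%) were present in 1 library, 328 (23.0%) in 2, 232 (16.3%) in 3 and 358 (25.1%) in 4. Other distal regions were present in 1 library in 42.9% and in 4 in 20.3% of 124292 cases, and flank regions in 35.0% and 25.5% of 2919. The share in 4 libraries was thus 4.78 percentage points higher than in other distal regions and close to that of the flanks. When the overlap had to cover at least 50% of the library's peak and 50% of the merged region, the excess shrank to 1.07 points. Of the 509 regions found in 1 library, 205 were in BPA 2, the longest list, and 42 in BPA 1, the shortest.

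The CTCF core was more frequent in the shared regions. It was near a summit in 14 of the 509 3′-end regions present in 1 library (2.75%), 19 of 328 in 2 libraries (5.79%), 24 of 232 in 3 (10.3%) and 37 of 358 in 4 (10.3%). In other distal regions the shares were 1.34%, 3.46%, 5.50% and 5.86%. In flank regions they were 2.35%, 5.53%, 8.06% and 6.99%. The 3′-end share was above that of other distal regions at each number of libraries. It was close to the flank share in 1 and 2 libraries and above it in 3 and 4. Shared regions were also wider, with medians of 376 bp in 1 library and 1047 bp in 4, and hold more summits, so the rise along the number of libraries is a description only.

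**Figure D4:**
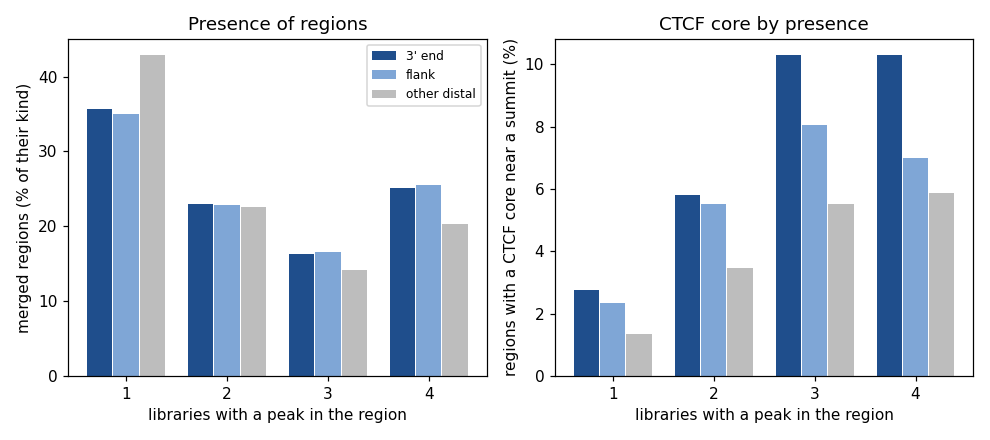
Left, the share of merged regions (% of their kind) by the number of libraries with a peak, for 3′-end, flank and other distal regions; right, the share of those regions with a CTCF core near a summit. 3′-end regions are open in 4 libraries in 25.1% of cases against 20.3% of other distal regions, and hold the core more often than other distal regions at every number of libraries.

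In 185 regions a 3′-end peak was called in each of the 4 libraries. The best summits of the 4 libraries lay within 131 bp of each other in the median region, within 50 bp in 32 regions and over 200 bp apart in 58. Across these 185 regions the ranks of the 2 BPA libraries correlated with a Spearman rho of 0.800 and those of the 2 controls with 0.549. Pairs of a control and a BPA library had 0.418 to 0.495. The regions of a library share its depth, so these values describe the lists and carry no test.

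The strongest shared region was downstream of Ctdsp1, which encodes a phosphatase of the RNA polymerase II tail, at chr1:74397255-74398367. Its peak ranked 0.742 and 2.17 in the controls and 1.48 and 0.945 in the BPA libraries, as percent of the list. The folds over background were 9.20, 9.45, 13.3 and 11.5. All summits were 163 to 305 bp downstream of the end, in intergenic sequence, and the nearest curated start was that of the microRNA gene Mir26b, 3201 bp away.

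The second was downstream of Fam120a, an RNA-binding scaffold protein, at chr13:48878073-48879057. It ranked 3.73, 4.34, 4.42 and 3.66 in control 1, control 2, BPA 1 and BPA 2, with folds of 8.72, 10.1, 15.5 and 14.4. Its summits were 427 to 455 bp beyond the end, near the edge of the window. Both regions were thus close to the top of each list, and neither held a CTCF core.

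The third had its summits in the last exon of Bad, a promoter of apoptosis of the BCL2 family. The region, chr19:6950505-6952912, also reached past the 3′ end. Its ranks were 5.73 and 7.16 in the controls and 5.46 and 4.73 in the BPA libraries. In 3 libraries the summit was 271 to 273 bp upstream of the end, and in BPA 2 it was 30 bp upstream. The next region spanned the 3′ end of a, the nonagouti gene, whose product opposes melanocortin signalling, at chr2:155050177-155051773. It ranked 2.79 and 3.07 in the controls and 9.34 and 6.46 in the BPA libraries, and its summits fell on both sides of the end.

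Fhl3, a LIM domain protein, and Shf, an adaptor protein with an SH2 domain, had the opposite order. The region downstream of Fhl3 ranked 11.1 and 10.7 in the controls and 5.64 and 4.0 in the BPA libraries. That of Shf ranked 12.0 and 11.8 in the controls and 8.46 and 3.46 in the BPA libraries. Xpc, the damage sensor of nucleotide excision repair, ranked 11.4 to 14.4 in the 4 libraries. Ankub1 ranked 11.3 and 12.9 in the controls and 15.2 and 13.6 in the BPA libraries.

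The regions of Slc4a3 and Aak1 were the 2 among the best 10 that held a CTCF core. The Slc4a3 region, at chr1:75559010-75559973, ranked 7.26 and 8.15 in the controls and 13.4 and 14.4 in the BPA libraries. The Aak1 region, at chr6:87002197-87003299, ranked 2.29 and 16.3 in the controls and 10.7 and 8.40 in the BPA libraries. At Aak1 the 2 controls thus enclosed both BPA libraries. The ranks of the groups did not overlap at 6 of these 10 regions, better in the controls at the nonagouti gene, Slc4a3 and Ankub1 and better in the BPA libraries at Bad, Fhl3 and Shf. Among the 185 regions the groups did not overlap at 84, or 45.4%, against 55.3% of 37960 autosomal regions with a peak in 4 libraries, and the controls ranked better at 43 of the 84. No test of a single region can pass with 2 libraries per group.

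A peak in both BPA libraries and in no control was found in 157 of 1427 3′-end regions, or 11.0% (95% Wilson interval 9.48 to 12.7). Over all 144198 autosomal regions this share was 9.48%, and in flank regions 10.6%. A peak in both controls and in no BPA library was found in 57 3′-end regions, or 3.99% (3.10 to 5.14), against 5.28% over all regions and 3.39% in flank regions. In other distal regions the 2 shares were 10.1% and 5.85%. The first 3′-end share was thus near that of all regions, and the second was below that of all regions. These intervals cover counting error over regions, which are not replicates, and carry no test of the groups. Without BPA 2 the second count rose to 132 regions, as regions then had 1 BPA library to be absent from. The 2 BPA libraries together held promoter peaks at more endothelial markers than the controls, 5 against 2 of 5 in each library, and the part of cell composition in these counts was not tested. The median G+C content near the summit was 52.7% in the regions of the BPA libraries and 44.0% in those of the controls, and in other distal regions it was 49.3% and 43.8%, so the same order was found there.

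The best-ranked regions found in both BPA libraries and no control lay at Tifab, Tmem88b, Slc13a3, Rgp1 and Hc. Slc13a3 encodes a sodium-coupled carrier of dicarboxylates, and its region, chr2:165404958-165405735, ranked 22.8 in BPA 1 and 22.7 in BPA 2, with folds of 7.52 and 5.28. Hc encodes complement component C5, and its region, chr2:34982449-34983398, ranked 26.5 and 24.1, with folds of 8.49 and 7.89. Tifab ranked 19.4 and 15.9, Tmem88b 20.5 in both lists and Rgp1 16.8 and 25.0. At Tifab, Tmem88b and Rgp1, the summit was within 500 bp of the end in 1 of the BPA libraries and just beyond it in the other, at 556, 509 and 524 bp.

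The best-ranked regions found in both controls and no BPA library lay at Ccar2, Sap18, Serpinb8, Ctif and Polr3k. The worse of the 2 ranks was 29.6 to 37.6 in these regions and 19.4 to 26.5 in the previous 5, while the better ranks overlapped. Each set of 5 was picked by this same worse rank, here from 57 regions and before from 157. The 2 ranges are therefore no comparison of the groups. Ccar2, a nuclear regulator of apoptosis and metabolism, had its peak at chr14:70138258-70138884 with ranks of 29.6 and 23.4 in control 1 and control 2 and folds of 4.70 and 5.29. Polr3k, a subunit of RNA polymerase III, ranked 29.6 and 37.6. Sap18 ranked 23.9 and 33.0, Serpinb8 19.7 and 35.8, and Ctif 36.8 and 19.6. The absence of a call is not a measured absence of signal, since peak lists leave out everything under the caller's threshold.

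**Figure D5:**
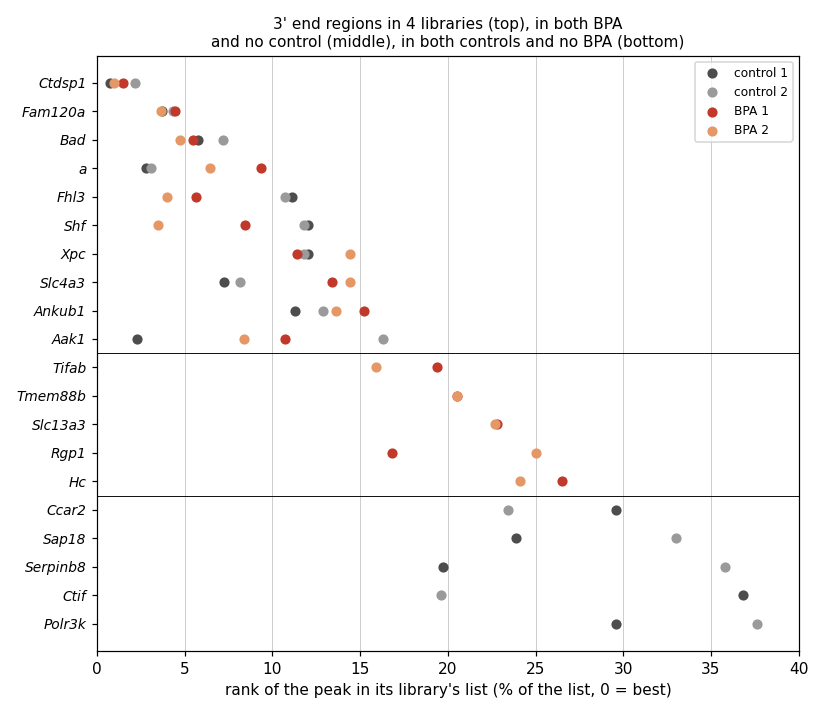
Rank of the peak in its library's list (% of the list, 0 = best) for the 10 best 3′-end regions in 4 libraries, the 5 best in both BPA libraries and no control, and the 5 best in both controls and no BPA library; each point is 1 library. The shared regions rank 0.742 to 16.3, those of the BPA pair 15.9 to 26.5 and those of the control pair 19.6 to 37.6. Each set was picked by rank from pools of unlike size, so the ranges are no comparison of the sets.

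Genes of adipose tissue were looked up by list. Of 22 adipocyte genes 20 had an eligible 3′ end, and of these 7 had a 3′-end peak in at least 1 library, or 35.0%, beside 8.61% of all genes. They were Cidec, Lep, Cd36, Scd1, Cfd, Plin4 and Car3, among them lipid droplet proteins (Cidec, Plin4), adipokines (Lep, Cfd) and the fatty acid transporter Cd36. The controls had it at 4 and 3 of these genes and the BPA libraries at 2 and 3. Over all eligible genes the share per library was 3.48 to 5.07%. Of 12 endothelial genes, 3 had the peak in at least 1 library (25.0%), namely Flt1, Tie1 and Eng. Of 12 progenitor and fibroblast genes 1 had it (8.33%), Pdgfra. None of 7 leukocyte, 5 mesothelial, 4 epithelial and 3 hepatocyte genes had one. Of 12 early response genes, Junb, Egr1, Atf3 and Klf6 had it (33.3%), a share close to that of the adipocyte list. Of 7 housekeeping genes Gapdh had it (14.3%).

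The shared gene of the early response list was Klf6, a zinc finger factor that is rapidly induced in many cells. Its region, chr13:5869408-5871879, ranked 25.7 and 10.9 in the controls and 18.7 and 11.5 in the BPA libraries. Junb, a subunit of AP-1, had a peak in 3 libraries, ranking 52.9 in control 1, 12.4 in BPA 1 and 11.3 in BPA 2, with none in control 2. At Junb, a short gene, the summits were about 2140 bp from a start site, close to the limit of 2 kb. The region itself reached closer to the start.

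Among adipocyte genes, Scd1, the desaturase that makes monounsaturated fatty acids, had a 3′-end peak in all 4 libraries, but with low ranks of 62.6 and 81.3 in the controls and 52.8 and 89.2 in the BPA libraries. Lep, which encodes leptin, had its peak at chr6:29073401-29074880. It ranked 36.7 and 24.2 in the controls and 60.3 and 58.6 in the BPA libraries, with folds of 3.85, 4.35, 4.10 and 2.89. The groups did not overlap in rank, whereas their folds did. In BPA 2 the summit was 795 bp downstream, outside the window.

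The region of Pdgfra, the receptor that marks adipose progenitors, ranked 21.8 and 53.3 in the controls and 63.0 and 97.5 in the BPA libraries. Its ranks thus ran over most of the list, and those of the 2 controls differed by more than those of control 2 and BPA 1. Tie1, an endothelial receptor, ranked 92.9 in control 1, 96.4 in BPA 1 and 76.7 in BPA 2 with no peak in control 2, and in BPA 2 its summit was 573 bp from the end, outside the window. The region of Gapdh, the glycolytic enzyme, also lay at the 3′ end of its neighbour Iffo1 and was found in control 2, BPA 1 and BPA 2 with ranks of 41.5, 81.7 and 75.5.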

How the data were processed

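ATAC-seq peak lists of 4 libraries (control 1 and 2, BPA 1 and 2) were used as deposited. The authors trimmed reads with Trim Galore, mapped them to mm10 with Bowtie2 2.3.5.1, kept unique reads, removed duplicates with SAMtools, and called peaks per library with MACS2 2.2.7.1, without pooling. In these files each deposited score is a whole number, 10 times the −log10 q-value with its decimals dropped. The deposited ratio is the fold of the summit's pile-up over local background. The caller's own model gave the deposited q-value and p-value, both as −log10. The lowest −log10 q-value was 1.30 to 1.31. Other caller options are not given in the sources used here. Since −log10 q rises with depth and was computed within each list, peaks were compared between libraries by rank within a list. Read depth is not known from these files, and the number of peaks limits the precision of each share. One list carries another replicate number in its name than in its label, and the label was used.

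Curated RefSeq transcripts, annotated on GRCm38, the same assembly as mm10, gave 21791 distinct 3′ ends of 20021 autosomal coding genes. Positions were counted from 1. Overlapping 3′-end peaks (at least 1 bp) were merged into regions. Motifs and G+C content were read within 100 bp of summits. Promoters were 500 bp either side of curated starts. Each library gave 1 value, tested over libraries by exact two-sided sign-flip or exact permutation tests, with Benjamini-Hochberg adjustment over 14 sign-flip tests. The study's text speaks of 4 mice, so tests measure the spread between animals and libraries together. Genes were named by rule: the 10 regions with 3′-end peaks in 4 libraries and the best worst rank, the 5 best found in only 1 group's 2 libraries, and listed genes with 3′-end peaks in 2 or more libraries. The rule, gene lists and tests were chosen with earlier results of these data known. The scripts were tested on simulated peaks, in Python 3.11.15 with numpy 2.4.6, pandas 2.3.3, scipy 1.17.1 and matplotlib 3.10.9. Alternatives changed the score threshold, window, distance from starts, 3′ ends used, membership, overlap and libraries.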

Additional observations from a re-analysis of the deposited data

Results flagged for a closer look

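The rank of 3′-end peaks against other distal peaks went opposite ways in the groups. Relative to other distal peaks, the median rank of 3′-end peaks differed by -2.50 and -0.695 points of the list in the 2 controls (mean -1.60, a better rank) and by 1.18 and 1.84 points in the 2 BPA libraries (mean 1.51, a worse rank). The difference between the groups was flagged because every library of one group lay on one side of 0 and every library of the other group on the other side. It was not tested beyond the exact permutation p of 0.33, the smallest possible here. Flank peaks had median ranks of 53.8 and 52.5 in the controls and 61.1 and 60.5 in the BPA libraries.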

How the results depend on the processing

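Of 152 alternative values, 104 kept their direction, and for shares and counts their size, 38 shares and counts moved and 10 values reversed. The reversals were the density ratio with a window of 1000 bp (1.03) and the difference in median rank: 1.16 with −log10 q of at least 5, 0.399 with equal numbers of peaks, 3.94 and 0.603 with windows of 250 and 1000 bp, 0.828 over 5 kb from any start, 0.587 with the most downstream 3′ end of each gene, and 1.94 against intergenic peaks only. The rank difference was -3.48 in the best 20000 peaks, -3.80 with any base of the peak and -1.86 against intron peaks only, each with 1 sign in 4 of 4 libraries. Leaving out 1 library gave -0.674 to 0.774. The cause was not tested. The promoter, G+C, downstream and CTCF differences kept their direction in every alternative run, but the promoter difference shrank to 3.79 points in the best 20000 peaks. The CTCF difference from other distal summits shrank to 2.89 points with a window of 250 bp and 3.22 with 1000 bp. It rose to 6.51 points in the best 20000 peaks. The alternatives for CTCF were chosen after seeing the data.

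Shares and counts moved mostly because an alternative admits fewer or more peaks by its construction. The share of peaks at 3′ ends was 0.487% in the best 20000 peaks, 0.345% and 1.68% with windows of 250 and 1000 bp, 0.669% over 5 kb from any start, 0.733% with the most downstream ends and 1.34% when any base of the peak could lie in the window. In the same order, the genes in at least 1 library were 1.34%, 4.23%, 16.1%, 9.23%, 8.08% and 13.8%, with 5.94% at −log10 q of at least 5, 6.97% with equal numbers of peaks and 7.03 to 8.01% without 1 library. Genes in all libraries were 0.735% at −log10 q of at least 5, 0.111% in the best 20000 peaks, 0.327% and 2.92% with the narrow and wide window, 2.3% with any base, 0.752% with 50% overlap and 1.20 to 1.53% without 1 library. The excess of regions in 4 libraries was 9.49 points with any base and 1.07 with 50% overlap. Regions of both BPA libraries and no control numbered 25 in the best 20000 peaks, 66 and 297 with the narrow and wide window and 240 with any base. Those of both controls and no BPA library numbered 30 at −log10 q of at least 5, 14 in the best 20000 peaks, 28 and 99 with the narrow and wide window and 65 to 132 without 1 library, the latter without BPA 2. The density ratio was not run with any base of the peak, since whole peaks have no matching territory. No paired analysis was possible because the replicate numbers link no animals across groups and no result comes from a fitted model. The lists hold no signal below the caller's threshold, and group differences could not pass a test at this size.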
